A study of Homo sapiens with 9 samples.

Results

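The small heat shock genes HSPB1, HSPB8, HSPB11 and CRYAB and the BAG family genes BAG1 to BAG6 were followed through heat stress and recovery in HEK293T cells, which derive from human embryonic kidney and carry the SV40 large T antigen. These 10 genes were taken by name as members of these families, with earlier results of these data known, and all 10 were present among the 60664 genes of the count table. RNA was sequenced from cells that were not heated (NC) and from cells heated at 43 °C for 1 h (H1). The other cells were heated in the same way and then recovered at 37 °C, for 1 h in H1R1, for 6 h in H1R6 and for 18 h in H1R18. NC, H1, H1R1 and H1R6 were represented by 2 libraries each and H1R18 by 1. The cells of all conditions were labelled as the same line, and those of NC as untreated wild-type. The labels name no other agent or genetic change and give no genotype for the heated cells.

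Small heat shock proteins bind proteins that begin to unfold and keep them from clumping until chaperones that use ATP, such as HSP70, can act on them. BAG proteins share a BAG domain through which most of them bind HSP70 and speed the release of its nucleotide, and their other domains link HSP70 to different partners. HSPB8 and BAG3 form a complex that, with HSP70 and the ubiquitin ligase STUB1, carries damaged proteins to autophagy. In cells under heat stress, many chaperone genes are activated by the transcription factor HSF1, which binds repeats of the unit GAA, in alternating orientation, known as heat shock elements.

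The promoters are shown for the 4 members that were higher than in NC at H1 or H1R1 by the test given below. They are the stretches where such elements are searched for. Of the 4, BAG2 had the smallest rise at H1R1, and its call did not hold in every alternative analysis. Each sequence is from RefSeq (GRCh38.p14), holds 250 bases before and 50 bases after the start of the gene, and is written on the gene's own strand, which is the plus strand for all 4. Capitals mark the bases of adjacent units in a 2-unit match (GAANNTTC or TTCNNGAA, each of which is its own reverse complement, so that both strands are covered).
HSPB1 (chr7:76302423-76302722): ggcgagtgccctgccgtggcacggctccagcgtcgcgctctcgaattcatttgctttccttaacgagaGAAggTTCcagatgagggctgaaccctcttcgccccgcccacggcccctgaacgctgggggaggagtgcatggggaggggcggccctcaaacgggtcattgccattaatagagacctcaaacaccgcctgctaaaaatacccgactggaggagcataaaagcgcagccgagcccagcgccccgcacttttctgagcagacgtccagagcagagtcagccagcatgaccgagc
HSPB8 (chr12:119178681-119178980): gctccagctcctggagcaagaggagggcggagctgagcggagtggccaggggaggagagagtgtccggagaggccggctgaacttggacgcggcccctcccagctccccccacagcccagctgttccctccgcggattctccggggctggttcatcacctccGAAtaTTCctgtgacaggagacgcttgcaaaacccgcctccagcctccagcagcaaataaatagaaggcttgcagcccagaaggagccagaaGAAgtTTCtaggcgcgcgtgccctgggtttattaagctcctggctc
BAG2 (chr6:57172076-57172375): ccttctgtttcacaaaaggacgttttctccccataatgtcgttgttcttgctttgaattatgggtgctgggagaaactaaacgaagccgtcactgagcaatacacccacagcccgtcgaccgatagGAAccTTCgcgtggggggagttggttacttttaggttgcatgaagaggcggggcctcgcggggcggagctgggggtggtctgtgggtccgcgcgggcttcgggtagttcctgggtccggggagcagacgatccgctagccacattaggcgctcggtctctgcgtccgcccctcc
BAG3 (chr10:119651130-119651429): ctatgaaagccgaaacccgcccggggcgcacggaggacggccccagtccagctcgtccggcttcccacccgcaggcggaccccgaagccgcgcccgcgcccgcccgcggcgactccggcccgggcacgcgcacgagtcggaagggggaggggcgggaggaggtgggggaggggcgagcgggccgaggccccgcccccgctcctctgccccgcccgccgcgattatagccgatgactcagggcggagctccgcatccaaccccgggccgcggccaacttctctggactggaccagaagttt

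The HSPB1 promoter held 1 match, with its first base at -182, counted back from -1 just before the start. The HSPB8 promoter held matches at -88 and at base 5 of the gene, and the BAG2 promoter held 1 at -124. The BAG3 promoter shown held none, and neither did the promoters of HSPB11, BAG1, BAG5 and BAG6. Of 35116 human promoters of the same length, 13.5% held a 2-unit match and 0.490% held 3 units in a row, which none of the members' promoters searched did. CRYAB had no entry in the promoter table, and BAG4 was not searched. The count table places the start of HSPB8 upstream of the RefSeq start, at 119171555 on chromosome 12, whereas the starts of HSPB1, BAG2 and BAG3 are the same in both. A match describes the letters of the window and is not evidence of binding. The lack of a match is not evidence against an element either, as only exact matches within the window were sought.

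Total counts ranged from 3814195 to 6221613 per library, and each read of a pair was counted, so that most counts rest on a smaller number of fragments. Separate cultures are stated neither in the labels nor in the paper, so the p-values rest on a spread between libraries that may be technical. The 2 markers of HEK293 cells checked, LIN28B and PAX2, were expressed in every library, with a summed level of 97.0 to 149 CPM (counts scaled to a common library size, with trimmed mean of M-values, TMM, factors). PAX2 was lower than in NC at H1R1 and H1R6 (log2 fold changes -0.93 and -0.97, adjusted p = 0.0173 and 0.0268 from edgeR) and LIN28B was higher at H1R1 (0.29, adjusted p = 0.0404), though DESeq2 called neither, and their part in the results was not tested. Of the 4 hepatocyte and 2 leukocyte markers, none passed the filter on low counts, and their summed levels reached 1.41 and 0.357 CPM. Among the 3 fibroblast markers only COL1A1 passed, and the summed level of the list was 44.3 to 64.2 CPM.

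HSPB1 and BAG3 transcripts were higher than in NC at the end of the heat shock, and HSPB8 and BAG2 transcripts were higher after 1 h of recovery. By 18 h BAG3, HSPB8 and BAG2 no longer differed from NC by the test, whereas HSPB1 was still above NC, 4.42-fold in the means. Of the 10 members, 9 passed the filter on low counts (21139 genes tested), and BAG6 did not. CRYAB passed only through its highest library, with 10 counts. In edgeR's quasi-likelihood test with Benjamini-Hochberg adjustment over all tested genes, 2 members were higher and 0 lower than in NC at H1 at an adjusted p under 0.05, where 3.43% of all genes were higher and 1.77% lower. At H1R1, 4 were higher and 0 lower, against 10.7% and 9.53% of all genes. At H1R6, 4 were higher and 0 lower, against 3% and 4.03% of all genes. DESeq2 called 0 members lower at these 3 times as well, and at an unadjusted p under 0.05 the numbers lower were 1 (BAG4), 0 and 0. At H1R18, 2 were higher and 1 lower, against 4.58% and 6.43%. The median log2 fold change of the 9 tested members against NC was 0.16 at H1, 0.56 at H1R1, 0.40 at H1R6 and 0.19 at H1R18, and the median over all tested genes lay between -0.03 and -0.01 at these times. CRYAB, which entered the test through a heated library, is among the 9. Its estimate lay above the members' median at each time, so that these medians would be lower without it. All 4 comparisons share the NC libraries. In bulk RNA, a change in every cell and a change in the share of cells that express a gene cannot be told apart.

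BAG3, the BAG protein that joins HSP70 to HSPB8 in selective autophagy, showed the largest change among the tested members. Its TMM-normalized level was 32.2 and 30.5 CPM in the NC libraries, 226 and 251 CPM at H1, 406 and 428 CPM at H1R1, 60.8 and 94.6 CPM at H1R6, and 35.9 CPM in the H1R18 library. The libraries of NC, H1, H1R1 and H1R6 did not overlap, and the H1R18 library lay just above both NC libraries. The log2 fold change against NC was 2.92 (SE 0.14, adjusted p = 1.37e-16 from edgeR) at H1 and 3.73 (SE 0.13, adjusted p = 2.13e-19) at H1R1, or 13.3-fold in the means. Among the 11747 tested genes whose average log2 CPM was 3 or more, this was the 7th highest fold change at H1R1 and the 9th highest at H1. The level at H1R6 was still above NC, with a log2 difference of 1.30 (SE 0.14, adjusted p = 1.99e-07), and at H1R18 the difference was 0.19 (SE 0.20, 95% interval -0.22 to 0.61, adjusted p = 0.615).

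Each step in the time course of BAG3 passed the test. Between H1 and H1R1 it rose by 0.81 in log2 (SE 0.11) with an edgeR adjusted p = 4.46e-06. It then fell by 2.42 between H1R1 and H1R6 (SE 0.12, adjusted p = 6.67e-16), and fell by 1.11 between H1R6 and H1R18 (SE 0.18, adjusted p = 6.85e-05). Of the rise above NC in the means, 12.0% was left at H1R6 (7.62% without H1R6 replicate 2 and 16.4% without H1R6 replicate 1) and 1.18% at H1R18. The gene lies on the plus strand of chromosome 10, from 119651380 to 119677819, and its exons held 117 to 2429 counts in a library.

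HSPB1 (HSP27), the most abundant small heat shock transcript in these cells, was above NC at every time after heat, the last of them with 1 library. Its level was 32.6 and 36.5 CPM in NC, 112 and 113 CPM at H1, 81.5 and 124 CPM at H1R1, 118 and 137 CPM at H1R6, and 153 CPM at H1R18. All 7 libraries from heated cells lay above both NC libraries, and H1R1 replicate 1 was the lowest of them. Against NC, HSPB1 had a log2 difference of 1.70 at H1 (SE 0.14, adjusted p = 3.77e-10 from edgeR), 1.56 at H1R1 (SE 0.15, adjusted p = 1.55e-09), 1.89 at H1R6 (SE 0.14, adjusted p = 6.86e-11) and 2.15 at H1R18 (SE 0.17, adjusted p = 4.23e-11). The value at H1R18 was the 8th highest among the same 11747 genes, where that of BAG3 was at place 3328.

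No step of HSPB1 from one time to the next passed the test. Between H1 and H1R1 the log2 fold change was -0.15 (95% interval -0.40 to 0.11, adjusted p = 0.524 from edgeR), and without H1R1 replicate 2 it was -0.46 (adjusted p = 0.0174). Between H1R1 and H1R6 it was 0.33 (95% interval 0.08 to 0.59, adjusted p = 0.0633), and it passed the test in 9 of 18 alternative analyses, with values from 0.34 to 0.65. Without H1R1 replicate 1 it was 0.05. Between H1R6 and H1R18 it was 0.26 (95% interval -0.05 to 0.56, adjusted p = 0.276). The gene lies on the plus strand of chromosome 7, from 76302673 to 76304295, with 140 to 790 counts in a library.

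**Figure D1:**
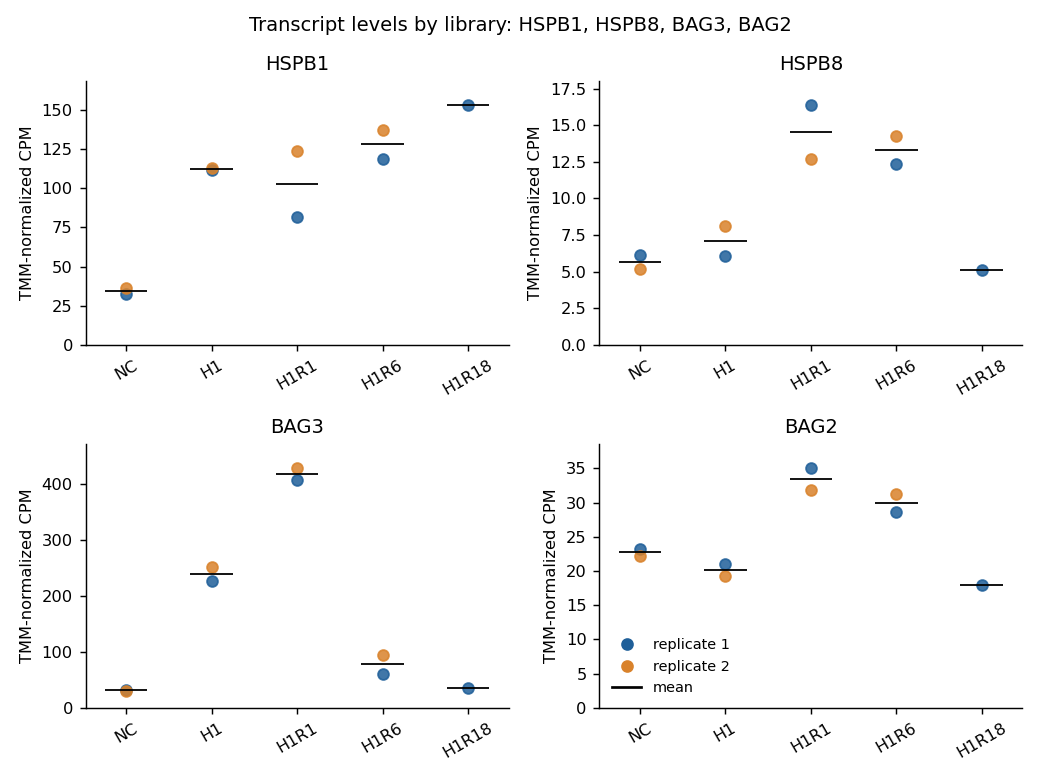
Level in TMM-normalized CPM (vertical axis, from 0) of HSPB1, HSPB8, BAG3 and BAG2 in each library (dots, coloured by replicate number), by condition, with the mean as a line. BAG3 peaks at H1R1 at 406 and 428 CPM and is at 35.9 CPM at H1R18, while HSPB1 is highest at H1R18 at 153 CPM.

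The ratio of HSPB1 to BAG3 therefore changed over the course. In CPM per kilobase of exon, HSPB1 was 1.71 and 2.02 times the level of BAG3 in the NC libraries, 0.834 and 0.759 times at H1, 0.339 and 0.486 times at H1R1, 3.28 and 2.45 times at H1R6, and 7.18 times at H1R18. BAG3 thus stood above HSPB1 in all 4 libraries of H1 and H1R1 and below it in the other 5. The ratio is a description, as no test was made of it.

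HSPB8 (HSP22), the small heat shock protein that works with BAG3, was not called at H1 and rose between H1 and H1R1. Its level was 6.12 and 5.22 CPM in NC, 6.06 and 8.12 CPM at H1, 16.4 and 12.7 CPM at H1R1, 12.4 and 14.3 CPM at H1R6, and 5.13 CPM at H1R18. The NC and H1 libraries overlapped, and all 4 libraries of H1R1 and H1R6 lay above every other library. At H1 the log2 fold change against NC was 0.31 (SE 0.32, 95% interval -0.34 to 0.97, adjusted p = 0.685 from edgeR). It was 1.36 at H1R1 (SE 0.30, adjusted p = 0.00135) and 1.22 at H1R6 (SE 0.30, adjusted p = 0.00946), and at H1R18 it was -0.15 (95% interval -1.05 to 0.75, adjusted p = 0.882).

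The difference between H1 and H1R1 was itself past the test for HSPB8, at 1.04 on the log2 scale (SE 0.28) with an edgeR adjusted p = 0.0136, as was the fall by 1.37 between H1R6 and H1R18 (SE 0.40, adjusted p = 0.0194). HSPB8 rested on 20 to 98 counts in a library, fewer than the other members that rose. The call at H1R6 was lost without NC replicate 2 (1.14, adjusted p = 0.0686) or without H1R6 replicate 2 (1.13, adjusted p = 0.108), and the step from H1 to H1R1 without H1 replicate 1 (0.85, adjusted p = 0.166) or without H1R1 replicate 1 (0.83, adjusted p = 0.205). The fall to H1R18 was lost without H1R6 replicate 2 (-1.27, adjusted p = 0.0918). The gene spans 119171555 to 119224855 on the plus strand of chromosome 12.

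BAG2, which binds HSP70 and restrains STUB1, followed a course like that of HSPB8 but with a smaller range. Its level was 23.2 and 22.2 CPM in NC, 21.0 and 19.3 CPM at H1, 35.1 and 31.9 CPM at H1R1, 28.6 and 31.3 CPM at H1R6, and 18.0 CPM at H1R18. The H1R1 and H1R6 libraries all lay above the NC, H1 and H1R18 libraries. Against NC, the log2 fold change was -0.18 at H1 (adjusted p = 0.704 from edgeR), 0.56 at H1R1 (SE 0.18, adjusted p = 0.0256), 0.40 at H1R6 (SE 0.18, adjusted p = 0.214) and -0.34 at H1R18 (SE 0.25, adjusted p = 0.430). The call at H1R1 was lost without NC replicate 1 (adjusted p = 0.0795), without NC replicate 2 (adjusted p = 0.0995) and without H1R1 replicate 1 (adjusted p = 0.171), with log2 fold changes of 0.60, 0.54 and 0.49.

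Between H1 and H1R1, BAG2 rose by a log2 difference of 0.74 (SE 0.18, adjusted p = 0.00572 from edgeR), and between H1R6 and H1R18 it fell by 0.74 (SE 0.24, adjusted p = 0.0371). The rise lost its call without H1 replicate 2 (0.66, adjusted p = 0.0918) or H1R1 replicate 1 (0.66, adjusted p = 0.0871), and the fall without H1R6 replicate 1 (-0.80, adjusted p = 0.0586) or replicate 2 (-0.67, adjusted p = 0.139). BAG2 (chromosome 6, 57172326 to 57189833, plus strand) overlaps RAB23 and ZNF451-AS1 on the other strand, and the counting did not use strand. RAB23 had a log2 fold change of 0.13 and ZNF451-AS1 of 0.24 at H1R1 against NC (adjusted p = 0.683 and 0.664). Across the 9 libraries, the log2 CPM of HSPB8 and BAG2 had a Pearson correlation of 0.90, the highest among the 28 pairs of tested members without CRYAB. The value describes libraries that share conditions and is given without a test.

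**Figure D2:**
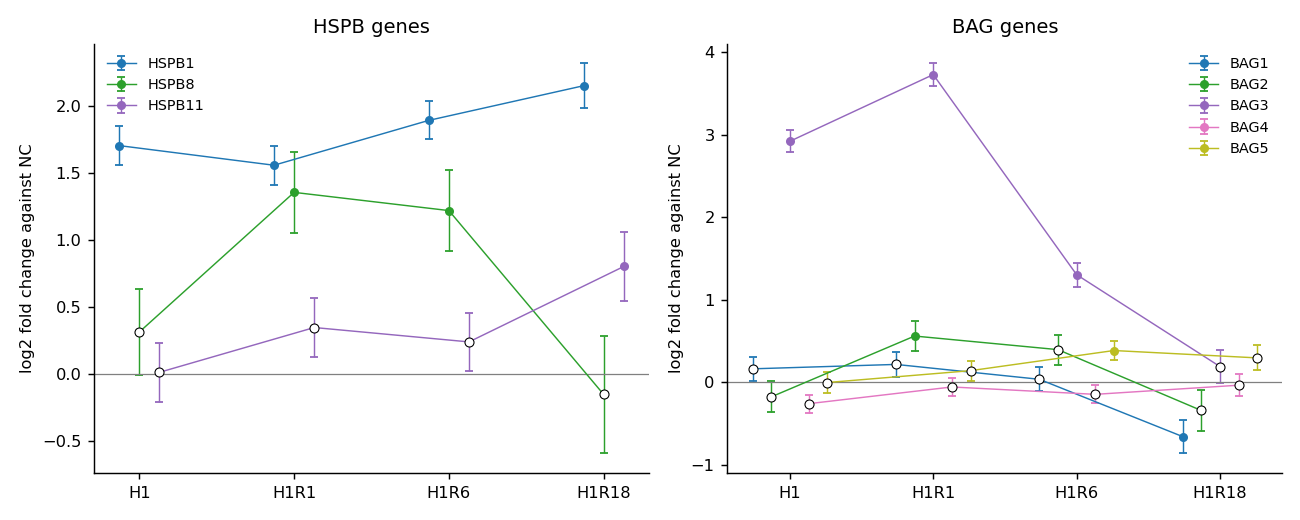
Log2 fold change against NC (vertical axis, different ranges) of 3 HSPB genes (left) and 5 BAG genes (right) at H1, H1R1, H1R6 and H1R18, with the SE as bars and open circles where the adjusted p was not under 0.05. BAG3 runs from 2.92 to 3.73, 1.30 and 0.19, while HSPB1 stays between 1.56 and 2.15, and all points share the NC libraries.

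Each time was also compared with the one before it. Between H1 and H1R1, 3 members rose (HSPB8, BAG2 and BAG3) and 0 fell, where 6.35% of all tested genes rose and 5.08% fell. Between H1R1 and H1R6, 0 members rose and 1 fell (BAG3), against 6.43% and 8.93% of all genes. Between H1R6 and H1R18, 0 rose and 4 fell (HSPB8, BAG1, BAG2 and BAG3), against 6.28% and 7.65% of all genes. At an unadjusted p under 0.05, 0 fell in the first step, and 2 and 1 rose in the other steps, where DESeq2 called 0 in these directions in all 3. DESeq2 did not call HSPB8 between H1 and H1R1, nor HSPB8, BAG1 and BAG2 between H1R6 and H1R18 (adjusted p = 0.0673, 0.0673, 0.0501 and 0.101). Against NC it did not call BAG2 at H1R1, BAG5 at H1R6, or HSPB11 and BAG1 at H1R18 (adjusted p = 0.0957, 0.107, 0.121 and 0.104). The median log2 fold changes of the 9 tested members were 0.33, -0.11 and -0.09 in these steps, and those of all tested genes were between -0.03 and -0.01. CRYAB is among the 9 and lay above the members' median in each step, so that these medians would also be lower without it.

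Among the transcripts of BAG1 to BAG5, the shift was carried by BAG3. In CPM per kilobase of exon, BAG3 made up 21.8% and 22.4% of the sum of BAG1 to BAG5 in the NC libraries. Its share was 68.7% and 70.6% in the H1 libraries, 77.0% and 78.3% in the H1R1 libraries, 33.6% and 44.1% in the H1R6 libraries, and 24.7% in the H1R18 library. BAG3 was above BAG1, BAG2, BAG4 and BAG5 in the 6 libraries of H1, H1R1 and H1R6, and below BAG4 in NC and at H1R18. BAG6 could not be measured and is left out of this ranking.

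**Figure D3:**
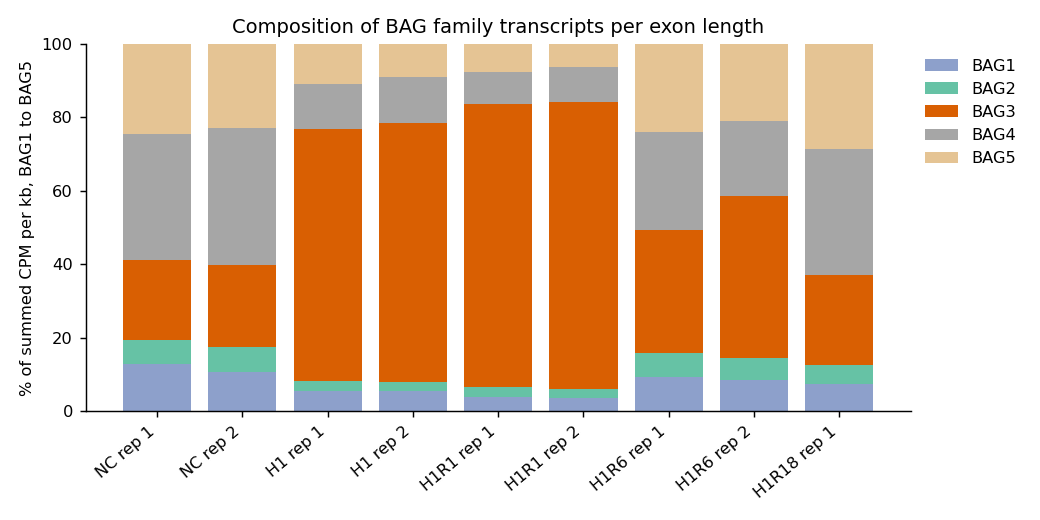
Share of BAG1 to BAG5 (stacked, in percent of their summed CPM per kilobase of exon, vertical axis) in each of the 9 libraries (rep, replicate). BAG3 fills 21.8% and 22.4% of the NC bars and 77.0% and 78.3% of the H1R1 bars. BAG6 is left out because of its low counts.

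BAG1, BAG4 and BAG5, which also bind HSP70 through their BAG domains, were not called against NC at H1 or H1R1. BAG1, which in addition binds the proteasome and BCL2, was at 48.9 and 37.8 CPM in NC, 46.3 and 51.6 CPM at H1, 51.8 and 49.7 CPM at H1R1, 43.1 and 46.6 CPM at H1R6, and 27.7 CPM at H1R18. The H1R18 library was below all the others, and both H1R1 libraries were just above both NC libraries. BAG1 was lower at H1R18 than in NC, at -0.66 on the log2 scale, with an SE of 0.20 (adjusted p = 0.0334 from edgeR), and fell by 0.69 between H1R6 and H1R18 (SE 0.20, adjusted p = 0.0177). Without NC replicate 1 the first was -0.43 (adjusted p = 0.253), without H1 replicate 2 it was -0.64 (adjusted p = 0.0527), and without H1R6 replicate 2 the step was -0.64 (adjusted p = 0.0847). H1R18 was 1 library, so that the difference has no replicate check of its own.

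BAG4, known as a silencer of death receptor signalling, did not pass the test in any of the 7 comparisons. It was at 88.9 and 89.8 CPM in NC, 70.1 and 79.3 CPM at H1, 81.7 and 90.7 CPM at H1R1, 84.4 and 77.2 CPM at H1R6, and 87.2 CPM at H1R18. Both H1 libraries were below both NC libraries, at -0.26 on the log2 scale (SE 0.11, 95% interval -0.48 to -0.04, adjusted p = 0.191 from edgeR). At the later times it was -0.06, -0.14 and -0.03, with 95% intervals from -0.28 to 0.16, from -0.36 to 0.07 and from -0.31 to 0.24.

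BAG5, which carries several BAG domains in a row, was at 67.7 and 57.9 CPM in NC, 67.4 and 58.6 CPM at H1, 74.3 and 64.2 CPM at H1R1, 80.7 and 84.1 CPM at H1R6, and 77.5 CPM at H1R18. The H1R6 and H1R18 libraries lay above all the others. BAG5 was higher than in NC at H1R6, with 0.39 on the log2 scale (SE 0.12) and an edgeR adjusted p = 0.0444, close to the threshold. The call was lost without NC replicate 2 (0.30, adjusted p = 0.253), without H1R6 replicate 1 (0.44, adjusted p = 0.106) or replicate 2 (0.38, adjusted p = 0.218), and without H1 replicate 1 (0.39, adjusted p = 0.058) or replicate 2 (0.40, adjusted p = 0.0525). BAG5 overlaps KLC1 on the other strand, which was at a log2 fold change of -0.06 at H1R6 (adjusted p = 0.822) and was lower at H1R1 (-0.35, adjusted p = 0.0244).

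HSPB11 is listed in the current annotation as IFT25, a subunit of the intraflagellar transport complex IFT-B that pairs with IFT27, and it is not closely related in function to the other small heat shock proteins. It was at 15.7 and 16.7 CPM in NC, 16.0 and 16.6 CPM at H1, 23.4 and 17.3 CPM at H1R1, 20.5 and 17.7 CPM at H1R6, and 28.2 CPM at H1R18. The H1R18 library was the highest, and the libraries of NC and H1 overlapped. HSPB11 was higher at H1R18 than in NC with 0.80 on the log2 scale (SE 0.26) and an edgeR adjusted p = 0.0417, and at H1, H1R1 and H1R6 the values were 0.01, 0.35 and 0.24 (adjusted p = 0.988, 0.285 and 0.613). The call at H1R18 was lost without NC replicate 1 (0.78, adjusted p = 0.119), NC replicate 2 (0.86, adjusted p = 0.0734), H1 replicate 1 (0.80, adjusted p = 0.0535) or H1 replicate 2 (0.82, adjusted p = 0.0501), with no filter (0.79, adjusted p = 0.0726), and with the replicate number as a block (0.74, adjusted p = 0.0848).

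**Figure D4:**
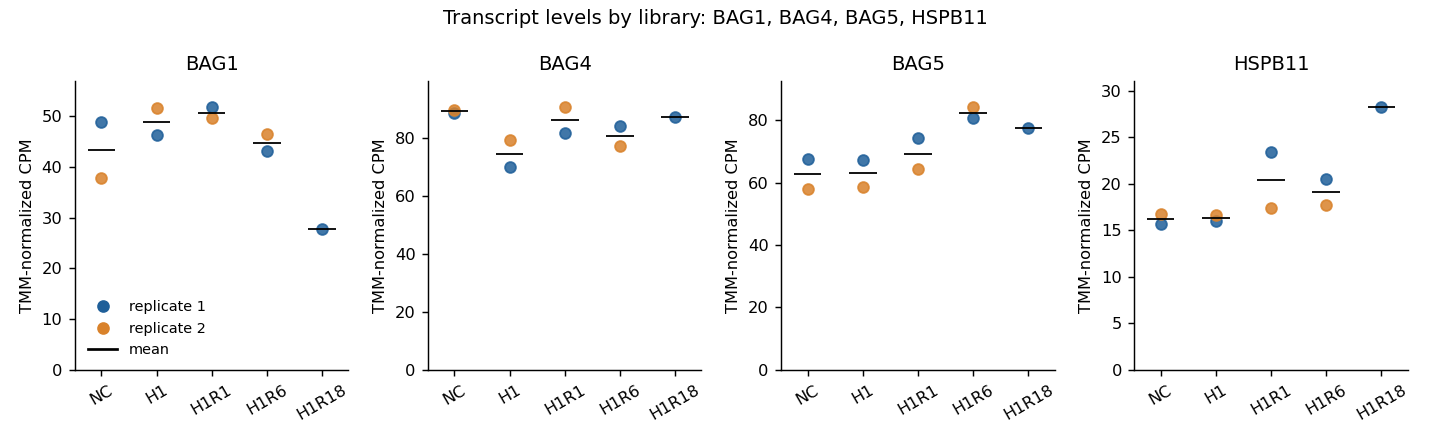
Level in TMM-normalized CPM (vertical axis, from 0) of BAG1, BAG4, BAG5 and HSPB11 in each library (dots, coloured by replicate number), by condition, with the mean as a line. The H1R18 library has the lowest BAG1 level (27.7 CPM) and the highest HSPB11 level (28.2 CPM).

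CRYAB (alpha B-crystallin), a small heat shock protein of lens and muscle, was close to absent from the counts. Its counts were 2 and 0 in the NC libraries, 4 in each H1 library, 0 and 10 in the H1R1 libraries, 6 and 8 in the H1R6 libraries, and 6 in the H1R18 library. The conditions overlapped, no comparison of CRYAB passed the test (smallest unadjusted p = 0.127, adjusted p = 0.426 from edgeR, at H1R6), and no fold change is given because the NC libraries together held 2 counts. At this depth a change of CRYAB could not be measured.

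BAG6, a chaperone of proteins with hydrophobic tails that is usually expressed in all cells, had counts of 6 and 0 in the NC libraries and 4 and 6 in the H1 libraries. The H1R1 libraries held 4 and 0, the H1R6 libraries 10 and 6, and the H1R18 library 2. It was below the filter and was not tested. The gene lies on the minus strand of chromosome 6, from 31639028 to 31652705, in a stretch that was nearly without counts. Between 29 and 33 Mb of chromosome 6, 125 of 153 protein-coding genes (81.7%) had under 10 counts summed over the 9 libraries, and 102 had 0. Between 25 and 29 Mb the share was 17.9% of 95 genes, and between 34 and 38 Mb it was 10.7% of 56 genes.

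Genes of the stretch that are used in nearly every cell were low as well, with summed counts of 10 for TUBB (a tubulin), 6 for DDX39B (an mRNA export helicase), 19 for CSNK2B (a subunit of casein kinase 2) and 0 for RPS18 (a ribosomal protein, whose start is just past 33 Mb). The low BAG6 counts can therefore not be read as a low level of BAG6 transcripts, and the cause of the gap was not tested. BAG2 lies on the same chromosome outside it. Of 12 protein-coding genes between 55 and 59 Mb, 25% had under 10 counts summed over the libraries, and the median summed count was 608.

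**Figure D5:**
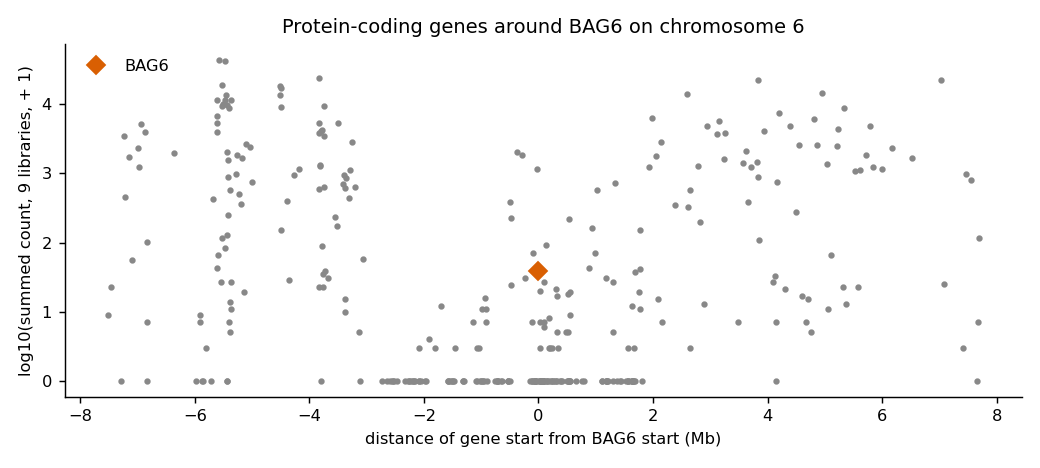
Summed count over the 9 libraries, as log10 of the count plus 1 (vertical axis), of each protein-coding gene on chromosome 6 whose start lies within 8 Mb of that of BAG6 (horizontal axis, distance in Mb), with BAG6 as a diamond. From about 3 Mb before to 2 Mb after BAG6, most genes lie on the zero line.

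Levels of the tested members were compared per kilobase of exon, which takes the length of the gene models into account. HSPB1 and BAG4 were the highest of them in NC, with means of 21.3 and 18.6 CPM per kb. BAG5 (12.3) and BAG3 (11.5) followed and overlapped, as did BAG1 (6.13) and HSPB11 (5.39), ahead of BAG2 (3.42) and HSPB8 (1.58 CPM per kb). At H1R1, BAG3 was first at 152 and HSPB1 second at 63.2 CPM per kb, followed by BAG4 at 17.9 and BAG5 at 13.6, with no overlap between these neighbours. At H1R18, HSPB1 was first at 94.2, followed by BAG4 at 18.1, BAG5 at 15.2 and BAG3 at 13.1 CPM per kb. Gene models include exons of all annotated isoforms, so that these levels are lower than those of the expressed isoform where a gene has rarely used exons.

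The genes that work with the members were examined from fixed lists. Of 7 other small heat shock genes, only HSPB6 passed the filter. Its counts were 2 in each NC library, 10 and 22 in the H1 libraries, 17 and 14 in the H1R1 libraries, 8 and 2 at H1R6 and 2 in the H1R18 library. It passed the filter only through heated libraries, so it entered the test through the groups where it was high, and its folds rest on 2 counts in each NC library. At H1R1 its log2 fold change was 2.67, with an SE of 0.92 (edgeR adjusted p = 0.037), and at H1 it was not called (2.56, adjusted p = 0.108). The call at H1R1 was lost without either NC library, without either H1R1 library or without H1 replicate 2, and DESeq2 gave the gene no adjusted p. The other 6 genes, which are expressed mainly in muscle, lens or testis, had at most 8 counts in a library.

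HSP70 releases its nucleotide with the help of BAG proteins or of other exchange factors, of which all 4 listed were tested. At H1, H1R1 and H1R6, 3 of 4 were higher than in NC and 0 lower, and at H1R18 1 was higher and 1 lower. The same counts were given by DESeq2, and at an unadjusted p under 0.05 the numbers lower at H1, H1R1 and H1R6 were 0, 0 and 1. With NC replicate 2 or either H1 library left out, fewer of the genes were called higher at H1. The smallest rise called at H1 was that of HSPA4, with a log2 fold change of 0.29 (adjusted p = 0.0133 from edgeR). HSPH1 (HSP110) went from 135 and 133 CPM in NC to 1636 and 1806 CPM at H1, 2721 and 2719 CPM at H1R1, 2392 and 2755 CPM at H1R6 and 324 CPM at H1R18. HSPH1 thus stayed near its highest level at H1R6, when BAG3 was at 18.6% of its H1R1 mean. Against NC the log2 fold change of HSPH1 at H1R6 was 4.26 (SE 0.07, adjusted p = 1.56e-28 from edgeR), that of HSPA4L was 2.02 and that of HSPA4 was 0.77. HSPBP1, another exchange factor, was lower at H1R18 (-0.88, adjusted p = 0.000893). The list's median was 0.99 at H1, 1.69 at H1R1, 1.39 at H1R6 and 0.16 at H1R18. Of all tested genes, 3.43%, 10.7%, 3% and 4.58% were higher than in NC at these times, and 1.77%, 9.53%, 4.03% and 6.43% lower.

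Of 8 genes of selective autophagy with BAG3 and HSPB8, 6 were tested. HSPA1A and HSPA1B lie in the stretch of chromosome 6 without counts. At H1 2 were higher than in NC, at H1R1 4, at H1R6 1 and at H1R18 0, and 3 were lower at H1R18 and 0 before. With DESeq2 the numbers higher were 2, 4, 0 and 0, and 0 were lower at any of these times. At an unadjusted p under 0.05, 4, 4, 1 and 0 were higher and 1, 0, 1 and 3 lower. The 3 lower at H1R18 became 1 without NC replicate 1 or H1 replicate 2, and the 1 higher at H1R6 became 0 without NC replicate 2 or H1R6 replicate 2. HSPA8, the constitutive HSP70, rose by a log2 fold change of 0.98 at H1 and 2.05 at H1R1 and was lower than in NC at H1R18 (-0.81, adjusted p = 0.000133 from edgeR). DNAJB6, an HSP40 protein, was higher at H1 and H1R1 by 1.83 and 1.78, and fell by 1.73 between H1R1 and H1R6. SQSTM1, an autophagy receptor, and MAP1LC3B, a protein of the autophagosome membrane, were higher at H1R1 by 0.62 and 0.65 (adjusted p = 7.95e-05 and 2.09e-05). STUB1 was lower than in NC at H1R18 (-0.49, adjusted p = 0.0292). The medians of the list were 0.48, 0.63, 0.18 and -0.35 at the 4 times. At these times 3.43%, 10.7%, 3% and 4.58% of all tested genes were higher than in NC, and 1.77%, 9.53%, 4.03% and 6.43% lower.

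Although BAG6 itself could not be measured, 7 of 7 genes of its complex and of the insertion of tail-anchored proteins were tested. At H1 1 was higher (0 with DESeq2), at H1R1 2 were higher and 1 lower, at H1R6 1 was higher, and at H1R18 2 were higher and 1 lower, and DESeq2 gave the same counts at these later times. The call at H1 was lost without NC replicate 2 or either H1 library, and without H1R1 replicate 1 the counts at H1R1 were 1 higher and 0 lower. SGTA, which hands proteins to BAG6, was higher at all 4 times, by 0.30, 0.67, 0.53 and 0.59 (adjusted p = 0.034, 7.7e-07, 9.4e-05 and 0.000214 from edgeR). At H1R1, GET3, the targeting ATPase, was higher by 0.63 (adjusted p = 0.00286) and GET1, a subunit of its membrane receptor, was lower (-0.69, adjusted p = 0.00838). The medians of the list lay between -0.11 and 0.08. Among all tested genes, 3.43%, 10.7%, 3% and 4.58% were higher at the 4 times, and 1.77%, 9.53%, 4.03% and 6.43% lower.

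Of 4 kinases that act on HSPB1 or lie in its pathway (MAPK14 and its MAPKAPK targets), 0 passed the test in either direction at H1, H1R1 and H1R18 by edgeR, and MAPKAPK3 was lower at H1R6 (-0.57, SE 0.12, adjusted p = 0.002). DESeq2 gave the same counts, and at an unadjusted p under 0.05 the numbers at H1, H1R1 and H1R18 were 0, 1 and 1. Without H1R1 replicate 2, 1 was higher at H1R1, and without NC replicate 2, 1 was lower at H1R18. MAPK14, the highest of them, had log2 fold changes of 0.11, -0.05, 0.14 and -0.35 at the 4 times (adjusted p = 0.655, 0.767, 0.494 and 0.0911). The shares of all tested genes at these times were 3.43%, 10.7%, 3% and 4.58% higher, and 1.77%, 9.53%, 4.03% and 6.43% lower.

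Of 16 other IFT-B genes, partners of HSPB11, 0 were called at H1 and at H1R6 by edgeR, where 2 and 2 had an unadjusted p under 0.05. DESeq2 called 0 at both times. At H1R1 5 were lower and 0 higher (2 and 0 with DESeq2), where 8 and 1 had an unadjusted p under 0.05. The number lower at H1R1 was 1 without H1R1 replicate 1, 2 without NC replicate 2, and 3 without NC replicate 1 or without H1R1 replicate 2, where 1 was higher. At H1R18 3 were higher and 2 lower (2 and 0 with DESeq2), and 2 and 1 without NC replicate 1. IFT27, the direct partner of HSPB11, was at 36.7 and 38.4 CPM in NC and at 74.2 CPM at H1R18, or 0.98 on the log2 scale, with an SE of 0.19 (adjusted p = 0.000454), and between H1R6 and H1R18 it rose by 1.13 (adjusted p = 5.49e-05). IFT172 and IFT20 were also higher at H1R18, by 0.56 and 1.01, and IFT88 and IFT56 were lower (-1.35 and -0.76). At H1R1 the lowest values among the called genes were those of IFT70A (-2.02, adjusted p = 0.000415), IFT70B (-1.49, adjusted p = 0.00869), IFT88 (-1.10, adjusted p = 0.0102) and IFT52 (-0.57, adjusted p = 0.0307). IFT70A and IFT70B are near-identical copies, and reads that fit both may have been lost from their counts. The medians of the list were -0.15, -0.39, -0.09 and -0.34 at the 4 times. By comparison, 3.43%, 10.7%, 3% and 4.58% of all tested genes were higher at these times, and 1.77%, 9.53%, 4.03% and 6.43% lower.

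Genes that start on the opposite strand within 1 kb of a member were compared with it. LRRC42 beside HSPB11, CHMP5 beside BAG1, LSM1 beside BAG4 and COA8 beside BAG5 passed the test in 0 of the 7 comparisons, and KLC1 only at H1R1. APOM beside BAG6 and ENSG00000256500 beside BAG5 were not among the tested genes. LSM1 (610 counts over the libraries) also overlaps BAG4 on the other strand, and the counting did not use strand. HSPB1, HSPB8, BAG2 and BAG3 had no such neighbour.

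For each member that passed the test against NC, the 3 genes with the most similar profile were sought by Pearson correlation of log2 CPM over the 9 libraries, among 11746 other genes. For BAG3 these were NKRF (0.989), DNAJB1 (0.989) and IER5 (0.985), and for HSPB1 RASSF1 (0.916), MPC2 (0.914) and COX6A1 (0.910). For HSPB8 they were SON (0.981), LRRC59 (0.976) and TFB2M (0.973), and for BAG2 HOXA11 (0.983), DHX15 (0.978) and PHF23 (0.977). For BAG1 they were RCAN1 (0.973), ATP6V0D1 (0.972) and RMND5A (0.971), for BAG5 RN7SL151P (0.956), SAPCD2 (0.918) and FAM168B (0.918), and for HSPB11 NUB1 (0.980), BRWD1 (0.956) and KIFAP3 (0.931). With 9 libraries in 5 conditions and this many genes, values of this size describe the libraries only. The best match of HSPB1 was the lowest among the 7 members compared.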

How the data were processed

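RNA-seq was analysed for 9 libraries of HEK293T cells, grouped by their labels. The authors deposited raw counts per gene, from total RNA depleted of ribosomal RNA. The submitters' notes and the file header name cutadapt 4.1, HISAT2 2.2.1 and featureCounts 2.0.2 with Ensembl 104 (GRCh38); each read of a pair was counted, without strand, and reads on several genes or places were dropped. The notes also name DESeq2 1.38.3. The paper names no test for these data.

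Counts were filtered with filterByExpr (minimum count 10, total 15), scaled by TMM and fitted with edgeR 4.0.16 (R 4.3.3, limma 3.58.1) with 1 coefficient per condition over all 9 libraries. P-values were adjusted over 21139 genes, with a threshold of 0.05. The SE is the log2 fold change divided by the square root of F. The filter took conditions as groups, so that a gene could pass on the H1R18 library alone, and that library was assumed to vary like the others. The method was tested on simulated data for H1R1 against NC only, so that the single H1R18 library was not covered, and the outcome is not given here. Alternatives were other scalings and filters, DESeq2 1.42.0, only the conditions compared, counts divided by 2, the replicate number as a block and each library left out in turn. HSPB11 was matched to IFT25 through a RefSeq synonym and position, and 99.7% of gene identifiers could be named. The members and lists were chosen with earlier results of these data known. The text names all members, from each list the most abundant tested gene and up to 4 called at H1 or H1R1, the neighbours within 1 kb and 3 genes of similar profile for each called member. Other genes of the lists, called at H1R6 or H1R18, were named after their values were seen.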

Additional observations from a re-analysis of the deposited data

Results flagged for a closer look

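The effects below differed between times, by the test of the later against the earlier time itself in edgeR. Between H1 and H1R1, the log2 fold changes were 1.04 for HSPB8 (adjusted p = 0.0136), 0.74 for BAG2 (adjusted p = 0.00572) and 0.81 for BAG3 (adjusted p = 4.46e-06). Between H1R1 and H1R6 it was -2.42 for BAG3 (adjusted p = 6.67e-16). Between H1R6 and H1R18, the values were -1.37 for HSPB8 (adjusted p = 0.0194), -0.69 for BAG1 (adjusted p = 0.0177), -0.74 for BAG2 (adjusted p = 0.0371) and -1.11 for BAG3 (adjusted p = 6.85e-05), against a single H1R18 library.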

How the results depend on the processing

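The calls of HSPB1 and BAG3 against NC held in every alternative analysis run. With DESeq2 in place of edgeR, 2 members were called at H1R6 against NC instead of 4 (HSPB8 had no adjusted p there), 1 at H1R18 against NC instead of 3, and 1 between H1R6 and H1R18 instead of 4; the cause was not tested. With each library left out in turn, the number called was 2 to 4 at H1R6 against NC, 1 to 3 at H1R18 against NC, 1 to 4 between H1 and H1R1 (4 without H1R1 replicate 2, with HSPB1 lower), 1 to 2 between H1R1 and H1R6, and 1 to 4 between H1R6 and H1R18. Between H1R1 and H1R6, the count of 1 became 2 with upper-quartile scaling, with no filter, with a minimum of 10 counts in each library, with counts divided by 2 or with the replicate block, each time with HSPB1, and 3 with scaling by library size only.

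Values near 0 that were not called changed sign. For BAG5 at H1 against NC the log2 fold change was 0.019 with no filter, 0.010 with the minimum of 10, 0.0024 with the replicate block, 0.00432 with only the conditions compared and 0.0014 with DESeq2. BAG4 was at 0.0057 at H1R18 against NC with the minimum of 10, and at 0.0034 between H1R1 and H1R6 with library size only. With each library left out, values ranged against NC from -0.028 to 0.064 for HSPB11 at H1, from -0.10 to 0.13 for BAG5 at H1, from -0.13 to 0.024 for BAG4 at H1R1 and from -0.11 to 0.26 for BAG1 at H1R6. Between H1 and H1R1 they ranged from -0.46 to 0.14 for HSPB1 and from -0.022 to 0.12 for BAG1, and between H1R1 and H1R6 from -0.30 to 0.072 for HSPB8 and from -0.29 to 0.14 for HSPB11.

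Same-numbered libraries showed no shared deviation, with correlations of -0.04 to 0.04 over 11747 genes. This check cannot exclude that they shared a culture or batch. The replicate block left the number called at 2, 4 and 4 at H1, H1R1 and H1R6 against NC and gave 2 at H1R18, without HSPB11. H1R18 has 1 library, and HSPB8 and CRYAB rest on few counts.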
